A study of Mus musculus with 6 samples.

Results

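The complement and coagulation factors described here are genes for plasma proteins that the liver secretes: the proteases, cofactors, pore proteins and inhibitors of complement and of blood clotting. They are a list of 43 genes set by name and function, with no value in the rule itself, but the list was drawn up with earlier results of these data known. Of these, 39 were measured on a probe set of their own and tested among 19938 genes. Klkb1, the gene of plasma prekallikrein, lay only on a probe set shared with Cyp4v3. C3, Cfd and Cpb2 had no matching probe set and are not analysed here.

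The livers came from male mice of C57BL/6, an inbred strain, and their total RNA was hybridised to 6 Affymetrix Mouse Gene 1.0 ST arrays. The mice were 6 weeks old when obtained and had 1 week of acclimatization on chow. In the cholesterol group (CH, 3 arrays) chow carried 1% cholesterol by weight. In the other group (LE, 3 arrays) each 100 g of chow carried 100 mg lovastatin, an inhibitor of HMG-CoA reductase and so of sterol synthesis, and 21 mg ezetimibe, an inhibitor of intestinal cholesterol uptake. Neither group was fed plain chow, so each difference is between a diet that supplies cholesterol and a diet that limits it. The length of feeding is not given in the labels. Arrays are titled as biological replicates without naming the animal behind each, so a p-value here measures spread among arrays that may in part be technical. No array carried a scan date or batch, and the median intensity per array lay between 158.1 and 162.9.

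Complement is a cascade of plasma proteins that marks microbes and debris and opens membranes. Its classical and lectin routes start with C1 or with mannose-binding lectins and cut C4 and C2, its alternative route runs through factor B, factor D and properdin, and all of them end in a pore built from C5, C6, C7, C8 and C9. Clotting is a second cascade of plasma proteases, in which factors VII, X, XI, IX and prothrombin lead to a fibrin mesh, and protein C, protein S and the serpins hold it back. Hepatocytes make most of these proteins, and several clotting factors need vitamin K for their activation. Properdin and C1q are made largely by myeloid cells.

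In LE liver, 8 of the 39 members were lower than in CH liver and 1 was higher. The lower genes were C9, C6 and C8b of the terminal pore, C2 and Mbl1 of the classical and lectin routes, and F7, F11 and Pros1 of clotting. The higher gene was Cfp, which encodes properdin. The differences were small, from 1.19-fold for Mbl1 to 1.69-fold for C9. The genes of fibrinogen, prothrombin, plasminogen, antithrombin and vitronectin had log2 differences between -0.04 and 0.02 and were not called.

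A gene was called when limma's adjusted p, over all 19938 genes, fell below the threshold of 0.05. Differences are LE minus CH on the log2(intensity + 1) scale, with the standard error (SE) of the fit and n = 3 arrays per diet. Of all genes tested, 12.1% were called, 5.08% lower and 7.01% higher, against 23.1% of the members called and 20.5% called lower. The members' mean levels ran from 9.63 to 14.21. A gene set bounded below by the dimmest member, with no upper bound and chosen after the values were seen, gives another background. Among the 3754 genes at least as bright as the dimmest member, 27.1% were called and 13.2% were called lower. The members' share of calls was thus above that of all genes and below that of this brighter set. Their share of lower calls was above both. The brighter set was not matched to the members' levels, and no difference of shares was tested. The split of calls over all genes moved with the scaling: 58.0% of calls were higher as deposited, 47.7% after quantile normalisation and 48.4% after centring on array medians.

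Of the members, 30 of 39 had a difference below 0, which is 76.9% against 51.7% of all genes, and their median was -0.06 against 0.00 for all genes. The LE arrays all lay below the CH arrays for 20 members, and all above them for 3. Over all genes these shares were 14.7% and 15.9%. They were not computed for the brighter gene set, in which calls were more common. The median absolute difference of the members, 0.09, was close to the 0.08 of all genes, and their median spread between arrays of a diet (SD) was 0.037 against 0.081. In bulk liver, fewer cells of a type and less RNA per cell cannot be told apart. The 7 hepatocyte markers had 0 calls by limma, and 2 had an unadjusted p under 0.05. A test in the manner of cyberT called 4 of them, 3 higher and 1 lower. The summed intensity of the 7 markers was 118742 to 121278 in CH and 119928 to 123731 in LE. Alb, the gene of albumin, had levels of 14.53 to 14.54 in CH and 14.48 to 14.56 in LE. For 3 markers every LE array lay above every CH array (Tat 0.12, Hnf4a 0.11 and Apoa1 0.10). For 1 marker every LE array lay below (Cps1, -0.09).

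**Figure D1:**
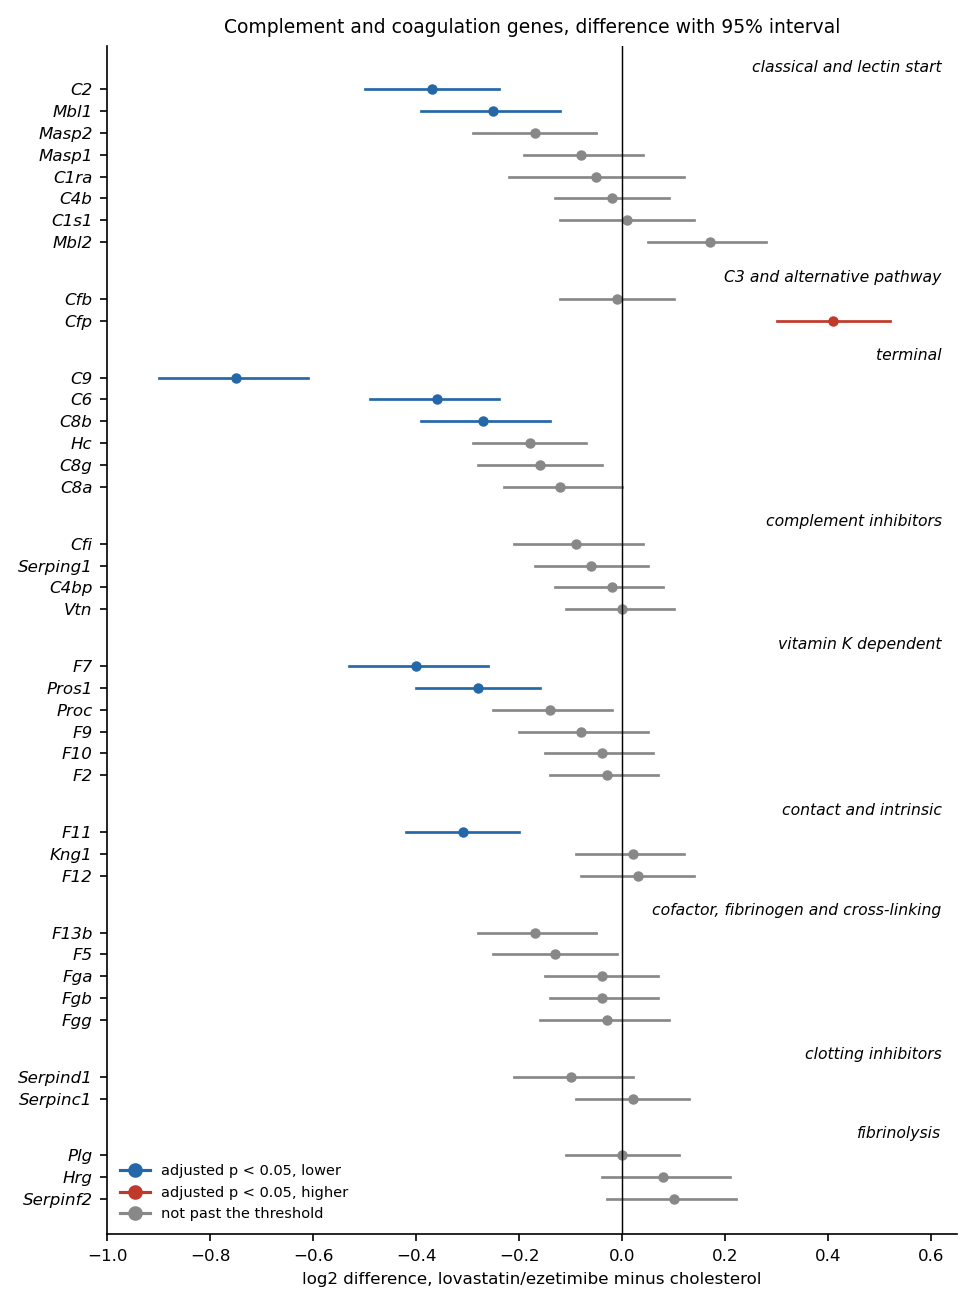
Log2 difference (LE minus CH) of each of the 39 tested members, grouped by role, with the 95% confidence interval from limma (n = 3 arrays per diet). C9 lies farthest to the left at -0.75 and Cfp farthest to the right at 0.41, and 30 of the 39 points lie below 0.

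Of the 6 listed genes of the terminal pore, 3 fell in LE and 3 were not called. C9 encodes the unit that polymerises into the pore wall. Its levels were 13.28, 13.31 and 13.31 in CH and 12.45, 12.55 and 12.65 in LE. Every LE array was below every CH array, and the difference was -0.75 (SE 0.06, adjusted p = 1.91e-04). C6, which joins C5b at the start of the pore, read 12.69, 12.60 and 12.68 in CH and 12.26, 12.27 and 12.36 in LE. The diets did not overlap, and the difference was -0.36 (SE 0.05, adjusted p = 0.00399). C8b, the chain of C8 that docks on the growing complex, read 13.48, 13.46 and 13.50 in CH against 13.15, 13.21 and 13.30 in LE. It fell by 0.27 (SE 0.06, adjusted p = 0.0184) with no overlap, but was no longer called without CH1 (0.0694), CH3 (0.0621), LE1 (0.0589) or LE2 (0.0675).

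The other 3 listed terminal genes had differences below 0 that were not called. Hc, the mouse gene of C5, read 13.19, 13.15 and 13.17 in CH and 12.99, 12.94 and 13.03 in LE, a difference of -0.18 just outside the threshold (adjusted p = 0.0511). C8g, the lipocalin chain of C8, differed by -0.16 (adjusted p = 0.0883). C8a, the chain that inserts into the membrane, differed by -0.12 (adjusted p = 0.185). For all 6 listed terminal genes the LE arrays lay below the CH arrays, with a median difference of -0.22. Over all genes 14.7% had this order, a share not computed for the brighter gene set. Called lower were 3 of the 6, against 5.08% of all genes and 13.2% of the brighter set, with no test of these shares. The summed intensity of the 6 genes was 54331 to 55405 in CH and 43766 to 46745 in LE. The count of 3 called lower was 2 without CH1, CH3, LE1 or LE2, and 6 after quantile normalisation, where the lower calls over all genes also rose, from 1012 to 1598. C7, the pore unit outside the chosen list, read 6.65 to 6.95 in CH and 6.81 to 7.14 in LE and was not called (0.15, adjusted p = 0.448).

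The called pore genes are shown by the 200 bases before their start, since all 3 fell. The sequences are RefSeq's for GRCm38.p6, and capitals mark a match to the C/EBP motif TTGCNNAA, a binding pattern of liver leucine-zipper factors, read on either strand. They lie at chr15:6445146-6445345 on the plus strand (C9), chr15:4727010-4727209 on the plus strand (C6) and chr4:104766117-104766316 on the plus strand (C8b).
C9: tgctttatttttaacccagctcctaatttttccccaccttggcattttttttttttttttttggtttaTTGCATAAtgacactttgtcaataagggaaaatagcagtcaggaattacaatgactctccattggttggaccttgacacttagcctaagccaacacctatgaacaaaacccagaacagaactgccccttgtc
C6: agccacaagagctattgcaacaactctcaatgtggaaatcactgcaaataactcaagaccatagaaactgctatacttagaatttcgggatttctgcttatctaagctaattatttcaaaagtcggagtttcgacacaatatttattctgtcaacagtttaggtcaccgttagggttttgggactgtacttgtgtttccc
C8b: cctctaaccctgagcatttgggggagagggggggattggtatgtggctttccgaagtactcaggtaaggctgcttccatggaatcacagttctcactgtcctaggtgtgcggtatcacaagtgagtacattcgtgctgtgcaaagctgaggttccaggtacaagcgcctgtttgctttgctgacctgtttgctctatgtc
The match in C9 starts 132 bases before the gene's start. C6 and C8b have no capitals, so none of the 6 motifs searched lies within these 200 bases of either gene. The HNF1 match counted for C8b in the longer window below lies outside them.

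**Figure D2:**
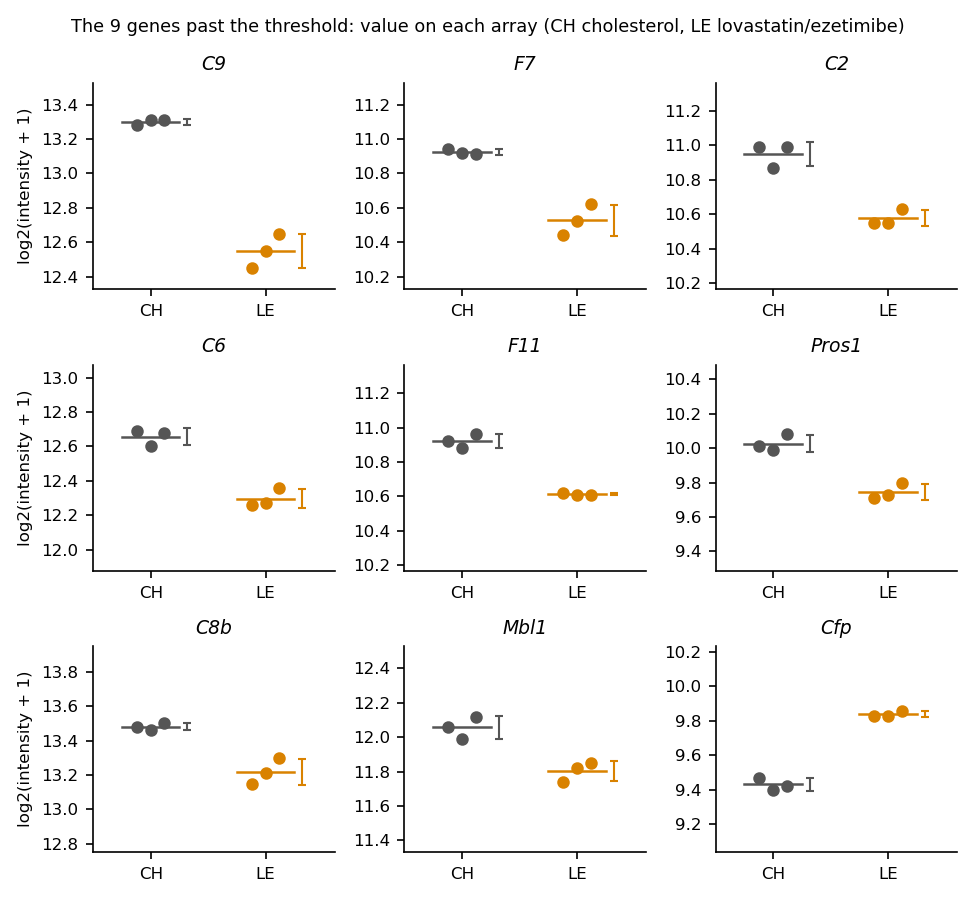
Log2(intensity + 1) on each array for the 9 called members, with CH and LE arrays side by side, the bar at the mean of 3 arrays and the error bar at 1 SD. In all 9 panels the diets do not overlap, with LE below CH for 8 genes and above it for Cfp.

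Among the 8 genes that start the classical and lectin routes, 2 fell and none rose. C2, the protease subunit of the classical C3 convertase, read 10.99, 10.87 and 10.99 in CH and 10.55, 10.55 and 10.63 in LE. The diets did not overlap, and the difference was -0.37 (SE 0.06, adjusted p = 0.00411). Mbl1, 1 of the pair of mouse mannose-binding lectins, read 12.06, 11.99 and 12.12 in CH and 11.74, 11.82 and 11.85 in LE. It fell by 0.25 (SE 0.06, adjusted p = 0.0253), and the call was lost without CH1 (0.0857), CH3 (0.0845), LE1 (0.0792) or LE2 (0.0736). Mbl2, the other lectin, had the opposite sign: it read 10.68, 10.65 and 10.67 in CH and 10.78, 10.86 and 10.87 in LE, and its 0.17 was not called (adjusted p = 0.0709).

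The proteases that bind these lectins were not called: Masp2, which cuts C4 and C2, differed by -0.17 (adjusted p = 0.0701) and Masp1 by -0.08. The C1 proteases were near 0, with C1s1 at 0.01 and C1ra at -0.05. A second probe set, shared by C1ra and its near-identical copy C1rb, differed by -0.08, so signal of the copies is uncertain. C4b, the substrate of both routes, differed by -0.02. C4a, its near-identical copy, was called lower at -0.29 (adjusted p = 0.0428), a call lost under removal of any array except CH2 (up to 0.133). Probes may not tell C4a from C4b.

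Of the alternative pathway, Cfp and Cfb were measured. Properdin, the product of Cfp, stabilises the alternative C3 convertase. Cfp read 9.47, 9.40 and 9.42 in CH and 9.83, 9.83 and 9.86 in LE, with no overlap. It rose by 0.41 (SE 0.05, 1.33-fold, adjusted p = 0.00107). Cfb, the protease of that convertase, read 12.92 to 12.98 in CH and 12.92 to 12.97 in LE and differed by -0.01.

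Markers of Kupffer cells and macrophages moved with Cfp. Of 13 such markers, 12 were called higher in LE, and for all 13 the LE arrays lay above the CH arrays, with a median difference of 0.37. Over all genes, 7.01% were called higher and 15.9% had all LE arrays above the CH arrays. The summed intensity of the 13 markers was 11030 to 11732 in CH and 14498 to 14874 in LE. Clec4f, a lectin of Kupffer cells, had a mean of 10.81 in CH and 11.04 in LE, with no overlap of arrays, but its call was lost on removal of any 1 array (adjusted p up to 0.104). With 1 array left out, 10 or 11 of the 13 markers were called higher. Cd5l, the marker not called, differed by 0.09. No marker was listed at 0. The part of these cells in the Cfp result was not tested.

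None of the 4 complement inhibitors was called by limma or in the manner of cyberT, and 0 had an unadjusted p under 0.05. Cfi, the protease that inactivates C3b and C4b, differed by -0.09, and Serping1, the C1 inhibitor, by -0.06. C4bp, a cofactor of Cfi, and Vtn, which keeps the pore out of membranes, differed by -0.02 and 0.00. Their median was -0.04, against -0.22 for the terminal genes, a description with no test of the difference.

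Of the 6 vitamin K dependent genes, F7 and Pros1 fell and 4 were not called. F7 encodes the protease that tissue factor binds to start clotting. Its levels were 10.94, 10.92 and 10.91 in CH and 10.44, 10.52 and 10.62 in LE, with no overlap and a difference of -0.40 (SE 0.06, adjusted p = 0.00426). Pros1 encodes protein S, the cofactor of activated protein C. It read 10.01, 9.99 and 10.08 in CH and 9.71, 9.73 and 9.80 in LE, again with no overlap, and fell by 0.28 (SE 0.05, adjusted p = 0.0111).

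F10, which encodes the protease that cuts prothrombin, read 11.61, 11.63 and 11.61 in CH and 11.58, 11.55 and 11.60 in LE, a difference of -0.04 (95% interval -0.15 to 0.06). Proc, the gene of protein C, differed by -0.14 (adjusted p = 0.141), F9 by -0.08 and F2, the gene of prothrombin, by -0.03 (95% interval -0.14 to 0.07). All 6 differences were below 0, with a median of -0.11. Ggcx, the carboxylase that uses vitamin K, differed by -0.03. Vkorc1, the reductase that recycles the vitamin, read 12.21 to 12.24 in CH and 12.04 to 12.11 in LE and was not called (-0.14, adjusted p = 0.103).

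In the contact and intrinsic group 1 of 3 genes fell. F11, whose product activates factor IX, read 10.92, 10.88 and 10.96 in CH and 10.62, 10.61 and 10.61 in LE. The LE arrays lay within 0.01 of each other and below every CH array, and the difference was -0.31 (SE 0.05, adjusted p = 0.00478). F12, which starts the contact pathway, differed by 0.03, and Kng1, the gene of kininogen, by 0.02. The probe set shared by Klkb1 and Cyp4v3 read 12.75, 12.74 and 12.76 in CH and 12.37, 12.42 and 12.51 in LE. Its difference was -0.31, but it cannot be assigned to Klkb1, the neighbour of F11, and was not tested.

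Of the 5 genes of fibrinogen, cross-linking and the factor V cofactor, limma called 0, with 2 at an unadjusted p under 0.05 and 2 called in the manner of cyberT. The 3 fibrinogen chains Fga, Fgb and Fgg differed by -0.04, -0.04 and -0.03. Fgb read 14.07, 14.08 and 14.09 in CH and 14.05, 14.06 and 14.03 in LE, with a 95% interval of -0.14 to 0.07. A dimmer probe set of Fga differed by -0.10. F13b, the carrier chain of the cross-linking enzyme, differed by -0.17 (adjusted p = 0.0808), and F5, the cofactor of factor X, by -0.13 (adjusted p = 0.158).

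Neither the 2 clotting inhibitors nor the 3 fibrinolysis genes had a call by limma or an unadjusted p under 0.05, and 1 of each was called in the manner of cyberT (Serpind1 lower, Serpinf2 higher). Serpinc1, the gene of antithrombin, differed by 0.02 and Serpind1, the gene of heparin cofactor II, by -0.10. The fibrinolysis genes were at or above 0. Plg, the gene of plasminogen, differed by 0.00 (95% interval -0.11 to 0.11). Serpinf2, the plasmin inhibitor, read 13.45, 13.41 and 13.46 in CH and 13.51, 13.49 and 13.62 in LE, so every LE array was above CH, but its 0.10 was not called (adjusted p = 0.319). Hrg, a plasma protein that binds plasminogen and heparin, differed by 0.08.

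For the 30 members not called, differences lay between -0.18 and 0.17, and their 95% intervals reached from -0.29 to 0.28. For 23 of them the whole interval lay within 0.25 of 0. Of the 17 members with an unadjusted p under 0.05, 8 were not called after adjustment.

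Members that work as a pair, or that lie close together in RefSeq's gene order for GRCm38.p6, were compared with each other. Fgb and Fgg, and Kng1 and Hrg, have 1 protein-coding gene between them. The log ratio of a pair was compared between diets with a two-sided exact permutation test over the arrays. With 3 arrays against 3 it cannot give a p below 0.1, and over the 11 pairs tested this adjusts to 0.183. F7 and F10 are adjacent on chromosome 8, and F7 differed by -0.40 and F10 by -0.04. Their ratio differed by -0.35 between diets with no overlap of arrays (exact p = 0.1). C2 and Cfb are adjacent on chromosome 17 and encode the like proteases of the classical and alternative convertases. Their ratio differed by -0.36 without overlap (exact p = 0.1). F10 and Cfb were near 0, so both ratios restate the falls of F7 and C2 and are not separate results. How often the ratios of other gene pairs do not overlap was not computed.

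C8a and C8b, adjacent on chromosome 4, encode chains of 1 protein, and the ratio of C8a to C8b differed by 0.15 without overlap (exact p = 0.1). The neighbours C1s1 and C1ra on chromosome 6 and the fibrinogen genes on chromosome 3 had overlapping ratios, as did Kng1 and Hrg on chromosome 16. The other 3 pairs were chosen after their values were seen. Mbl1 against Mbl2 differed by -0.42, Masp1 against Masp2 by 0.09 and Pros1 against Proc by -0.14, each without overlap (exact p = 0.1).

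**Figure D3:**
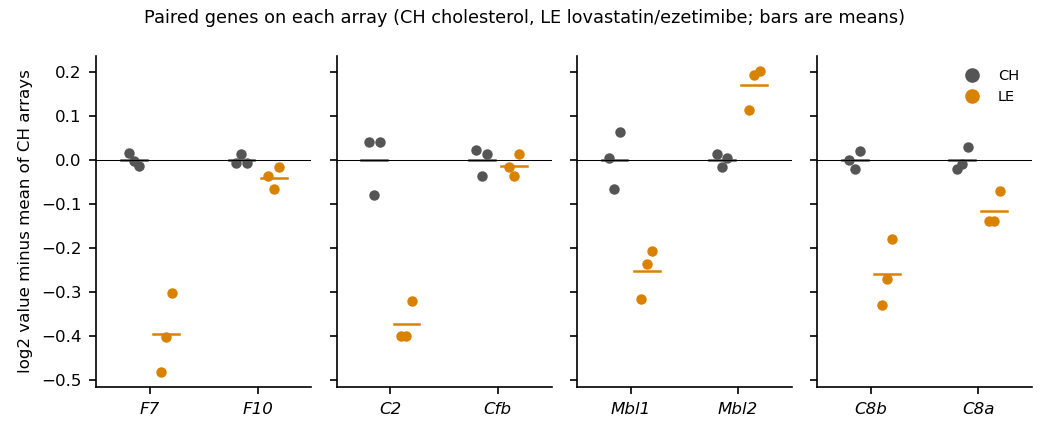
Deviation from the CH mean, on the log2(intensity + 1) scale, on each of the 6 arrays for the pairs F7 and F10, C2 and Cfb, Mbl1 and Mbl2, and C8b and C8a. In LE arrays F7, C2, Mbl1 and C8b lie farther below 0 than their partners, and Mbl2 lies above 0.

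The neighbours F7 and F10 are shown because F7 was called and F10 was not. Their 200 bases before the start lie at chr8:13025834-13026033 on the plus strand (F7) and chr8:13037108-13037307 on the plus strand (F10) in GRCm38.p6, from RefSeq.
F7: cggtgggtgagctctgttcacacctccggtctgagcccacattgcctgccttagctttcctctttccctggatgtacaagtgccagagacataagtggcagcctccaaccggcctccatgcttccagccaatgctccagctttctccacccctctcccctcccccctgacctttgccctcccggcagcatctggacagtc
F10: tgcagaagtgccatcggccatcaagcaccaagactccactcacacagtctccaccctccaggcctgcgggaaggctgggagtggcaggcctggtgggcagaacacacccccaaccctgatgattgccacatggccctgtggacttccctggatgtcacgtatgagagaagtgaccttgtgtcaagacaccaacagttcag
Neither stretch has a match to the motifs searched, so both are in lower case.

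Of the 43 listed genes, 34 had a RefSeq promoter window of 250 bases before to 50 bases after the start, among them 8 of the 9 called genes (not C2). The HNF1 letters GTTAAT was found on either strand in 11 windows (32.4%), against 7.20% of the windows of 27025 genes. The C/EBP motif TTGCNNAA was found in 12 (35.3% against 10.8%), and the STAT motif TTCNNNGAA in 8 (23.5% against 8.47%). The TATA letters TATAAA were found in 5 (14.7% against 14.2%). The HNF4 motif CAAAGTCCA and the sterol element TCACNCCAC were in no member's window, and in 0.477% and 1.22% of all windows. The 27025 genes were not limited to those expressed in liver, so these shares do not set the members apart from other liver genes. No difference of these shares was tested. These are letters found, not binding sites, and no match says nothing of the factor.

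Matches occurred in members that were called and in members that were not. F11, which fell, and Fgb, which was not called, are shown for this, at chr8:45262032-45262231 on the minus strand and chr3:83049864-83050063 on the minus strand. Capitals mark the C/EBP motif in F11, and in Fgb, from left to right, the STAT, C/EBP and HNF1 matches.
F11: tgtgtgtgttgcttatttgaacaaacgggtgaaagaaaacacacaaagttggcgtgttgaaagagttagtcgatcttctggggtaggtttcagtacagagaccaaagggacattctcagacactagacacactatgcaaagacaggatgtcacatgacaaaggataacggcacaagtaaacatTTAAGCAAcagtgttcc
Fgb: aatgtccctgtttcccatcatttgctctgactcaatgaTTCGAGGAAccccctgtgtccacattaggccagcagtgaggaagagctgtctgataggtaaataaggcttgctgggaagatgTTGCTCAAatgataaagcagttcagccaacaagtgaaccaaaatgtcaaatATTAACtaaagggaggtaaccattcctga
The match in F11 starts 17 bases before the start. Those in Fgb start 162, 80 and 29 bases before it and do not overlap. Cfp, which rose, has the HNF1 letters 18 bases before its start, and Pros1, which fell, a STAT match 92 bases before its start.

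Outside the chosen list, other genes of both cascades included more higher calls than lower ones. Over all genes, 7.01% were called higher and 5.08% lower. Of 31 other complement genes tested, 9 were called higher and 3 lower, with a median difference of 0.08. The counts were 9 and 6 after quantile normalisation, and 8 and 4 after centring on array medians. Cpn1, the carboxypeptidase that trims complement peptides, read 12.56, 12.57 and 12.55 in CH and 13.03, 12.99 and 13.10 in LE. It rose by 0.48 (SE 0.05, adjusted p = 6.75e-04). C1qb rose by 0.47 and C1qa by 0.41, both chains of C1q. C3ar1 and C5ar1, receptors of complement peptides, rose by 0.42 and 0.41, and the call of C3ar1 was lost without CH1, LE1 or LE3 (up to 0.0669).

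C1qa, C1qb, C1qc and Vsig4, all called higher, stand in both the complement and the macrophage list, whose summed intensity is given above. The part of macrophages in their rise, or in that of C3ar1 and C5ar1, was not tested. Cd59b, a membrane inhibitor of the pore, fell by 0.40 (adjusted p = 0.0403), a call lost under removal of any array except CH2 (up to 0.11). Its mean was 8.23 in CH and 7.83 in LE. Cd59a, the brighter gene of the Cd59 pair, had means of 11.68 and 11.34. It fell by 0.34 (adjusted p = 0.00916), a call that held under all 15 alternatives. Probes may not tell Cd59a from Cd59b, so these may not be separate falls. With 1 array left out, between 6 and 7 of the other complement genes were called higher and between 1 and 3 lower. The lower count was 1 without CH1, LE1 or LE2, and 2 without CH3 or LE3.

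Of 34 other coagulation genes tested, 7 were called higher and 0 lower by limma, with a median of 0.03. Lower were 3 at an unadjusted p under 0.05 and 2 in the manner of cyberT. Gas6, a vitamin K dependent relative of protein S, read 9.63, 9.66 and 9.61 in CH and 9.95, 10.01 and 10.11 in LE. It rose by 0.39 (SE 0.06, adjusted p = 0.00337), where Pros1 fell by 0.28. The call of Gas6 held under all 15 alternatives. Tfpi2, a protease inhibitor, rose by 0.28, Vkorc1l1, a relative of Vkorc1, by 0.26, and Kng2, a near-identical copy of Kng1 whose probes may overlap with it, by 0.24. The call of Tfpi2 was lost without CH1, CH3, LE1 or LE3 (up to 0.0938), that of Vkorc1l1 without CH1, CH3 or LE2 (up to 0.0608) and that of Kng2 without any array but LE1 (up to 0.0929). The count of 7 was 1 without CH1 or CH3, 2 without LE3, 3 without CH2 or LE2 and 4 without LE1. Higher and lower calls were 8 and 0 after quantile normalisation and 5 and 1 after centring on array medians. Without the dimmest 33.3% of genes they were 8 and 3, of 28 genes left.

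Other secreted liver proteins were mostly not called. Of 19 tested, 1 was called (5.26%, against 12.1% of all genes). It was Igfals, the binding partner of insulin-like growth factors, which fell by 0.65 (adjusted p = 1.84e-04). At an unadjusted p under 0.05 there were 2, and 5 were called in the manner of cyberT. The list's median difference was -0.01, against -0.06 for the members. Endothelial, stellate, bile duct, adipocyte, platelet, neutrophil and lymphocyte markers, 37 genes in all, had 0 calls by limma, with 6 at an unadjusted p under 0.05 and 3 called in the manner of cyberT.

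**Figure D4:**
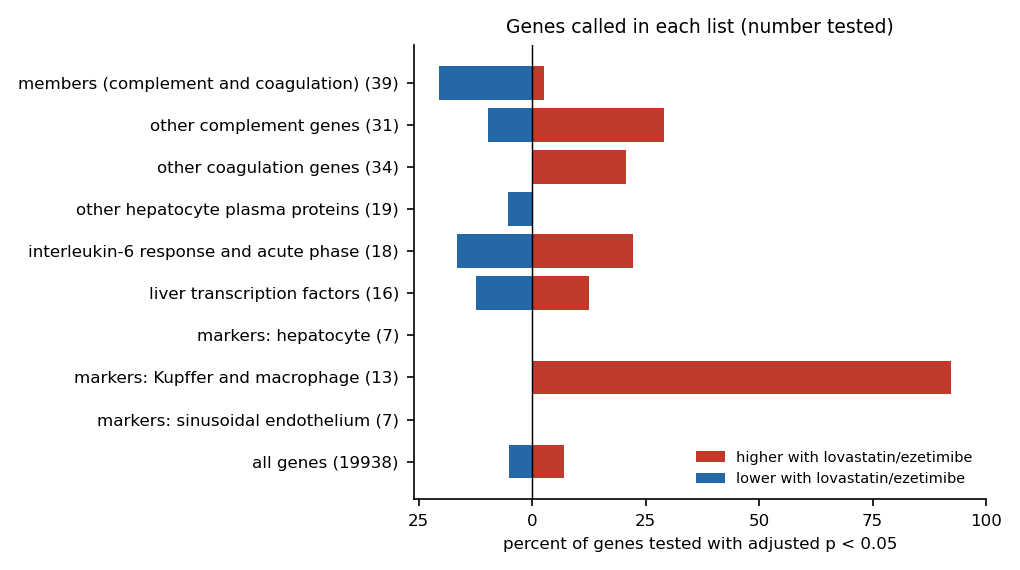
Percent of each gene list called higher or lower in LE (adjusted p under the threshold of 0.05, limma), with the number tested. Kupffer and macrophage markers stand at 12 of 13 called higher, the members at 8 of 39 lower and 1 higher, and the hepatocyte markers at 0 of 7.

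The arrays within a diet differed slightly over the members as a whole. LE3 was the highest LE array for 34 of the 39 members, and for 21 after centring and 19 after quantile normalisation. CH2 was the lowest CH array for 28, and for 35 and 20 after these scalings. The members' median difference was -0.092 without CH2, a move of over 1.5 times, and lay between -0.072 and -0.045 when any other array was left out. The calls of C2, C6, C9, Cfp, F7, F11 and Pros1 held under all 15 alternatives, 20 members were called under none of them, and 12 changed side.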

How the data were processed

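Liver RNA of 3 CH and 3 LE arrays was compared. The authors deposited linear probe set intensities. How they corrected background, normalised and summarised probes is not given in the sources used here, and a scaling between arrays may already be in the values. Per the series design text, differential expression was analysed with Partek Genomics Suite and cyberT.

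The platform annotation named 1 gene for 21789 of 35556 probe sets, several for 1621 and no gene for 12146. By gene identifier, 21698 of the first kind matched RefSeq. A gene's value was that of its single-gene probe set, or of the one with the highest mean for the 999 genes that had more. No 2 arrays shared more than 28 values. Values were taken as log2(intensity + 1), which understates the change of dim genes, and compared with limma 3.58.1 (lmFit and eBayes, R 4.3.3). Tests were two-sided and adjusted by Benjamini-Hochberg over 19938 genes. Figures used Python 3.11.15 and matplotlib 3.10.9. The fit was tested on simulated data with independent normal noise of limma's own variances. Such data meet the model by design, so they cannot test it against shifts shared within an array. The number of arrays limits the precision.

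The members and lists were chosen with earlier results of these data known. Every called member is named, with the other members by difference, and up to 6 called genes of each other list. C4a, C1qc, Vsig4 and Cd59a are named in addition. Alternatives were a replicate block, median centring of arrays, quantile normalisation, a filter that drops the dimmest 33.3% of genes, the mean of probe sets, an intensity trend with a robust prior, a test in the manner of cyberT, pseudocounts of 16 and 0, and leaving out each array. Same-numbered arrays of the diets correlated at -0.02, -0.10 and 0.16 in their deviations, so the numbers were not taken as pairs.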

Additional observations from a re-analysis of the deposited data

How the results depend on the processing

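The sign of the members' median difference held under every alternative run. The replicate block, the trend with robust prior, the test in the manner of cyberT and the dim filter could not change it. They leave each member's difference as it is, with a median of -0.058. It was -0.082 after quantile normalisation and -0.083 after centring on array medians. The count of members called lower, 8 with all arrays, was 14 after quantile normalisation and 16 both with an intensity trend and robust prior and in the manner of cyberT. Lower calls over all genes rose as well under these settings, from 1012 to 1598, 1560 and 1678. With 1 array left out the members' count was 6 to 8. The count called higher, 1 otherwise, was 2 without the dimmest 33.3% of genes and 3 both with the trend and robust prior and in the manner of cyberT. Over all genes, 3746 were called in the manner of cyberT, against 2410, and 1489 to 1868 with 1 array left out. The members' median difference was -0.092 to -0.045 with 1 array left out. With the replicate block, 7 members were called lower, 1 higher and 1688 genes in all, and the call of Mbl1 was lost (adjusted p = 0.0535), as were those of C4a, Cd59b, Tfpi2, Kng2, Clec4f, Cebpa and Foxa2 among the other genes named, and 2 in place of 7 other coagulation genes were called higher. Hc was called under 6 of 15 alternatives, with adjusted p from 5.63e-05 to 0.175. The causes were not tested. With 3 arrays per diet, the 95% intervals of members not called reach from -0.29 to 0.28.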

Other observations

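Among 16 liver transcription factors tested, 2 were called higher and 2 lower. Onecut1, also called HNF6, read 10.27, 10.18 and 10.26 in CH and 9.48, 9.46 and 9.57 in LE, with no overlap, and fell by 0.73 (SE 0.05, limma adjusted p = 1.09e-04). Cebpa fell by 0.23 (adjusted p = 0.0149), and the call was lost without CH1 or CH3 (up to 0.0721). Cebpd and Foxa2 rose by 0.29 and 0.24, calls lost without any array but CH1 and any array but LE1 respectively (up to 0.0828 and 0.132). The call of Foxa2 was also lost with median centring. Hnf4a read 12.82 to 12.83 in CH and 12.90 to 12.95 in LE and was not called (0.11, adjusted p = 0.20).

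Of 18 genes of the interleukin-6 response and acute phase, 4 were called higher and 3 lower, with a median difference of 0.01. The share called was 38.9%, against the same 12.1% and 27.1%, and no difference of shares was tested. Lcn2, the iron-siderophore binder lipocalin 2, read 8.47, 8.44 and 8.60 in CH and 9.43, 9.53 and 9.54 in LE, and rose by 0.99 (SE 0.06, adjusted p = 3.81e-05). Apcs and Orm2 rose by 0.35 and 0.33, and Orm1 was not called (-0.01). The serum amyloid genes Saa1, Saa3 and Saa4 fell by 0.63, 0.58 and 0.45, and Saa2 was not called (-0.08, adjusted p = 0.429). Probes may not tell related genes of this family apart, so these values are uncertain. The calls of Onecut1, Lcn2, Apcs, Orm2, Saa1, Saa3 and Saa4 held under all 15 alternatives.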
